A study of Mus musculus with 2 samples.

Results

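Goblet cells are the mucus-secreting cells of the gut lining, and this account describes those found in 2 single-cell RNA libraries from the proximal small intestine of control mice. A goblet cell was taken to be a cell barcode, the tag shared by all RNA captured in 1 droplet, that was selected on its unique molecular identifiers (UMIs), each of which stands for 1 captured RNA molecule. Members were thus chosen by the measured levels of mucus genes, which are described but not tested. At least 0.5% of its UMIs had to come from Muc2, Fcgbp, Clca1 and Zg16 together, at least 3 of these 4 genes had to have a UMI, and the T cell receptor genes Cd3d, Cd3e and Cd3g had to have none. Of 11862 barcodes with 500 or more genes and under 25% mitochondrial UMIs, 452 met the rule, 163 in control 1 and 289 in control 2. They made up 2.29% of the barcodes of control 1 (exact 95% binomial interval 1.95% to 2.66%) and 6.09% of those of control 2 (5.43% to 6.81%). The intervals, here and for UMI sums, cover counting error only.

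Goblet cells arise from crypt progenitors that escape Notch signalling and switch on the transcription factors Atoh1 and Spdef. They fold and heavily glycosylate the gel-forming mucin Muc2 in the endoplasmic reticulum (ER) and Golgi, pack it into large apical granules and release it by calcium-triggered exocytosis, with acetylcholine acting on muscarinic receptors as a classical trigger. The secreted gel, with proteins such as Fcgbp, Clca1, Zg16 and Tff3, keeps luminal bacteria away from the epithelium.

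The study addresses how the M1 and M3 muscarinic receptors act on specialized cells of the mouse intestinal epithelium. Both libraries came from C57BL/6 mice that served as controls, with no allele or agent named for either; control 1 is labelled as the M1 control and control 2 as the M3 control, and they form 1 group. Tissue was loosened with 20 mM EDTA over 60 min, and a further 10 min in the protease TrypLE followed. The villus-rich and crypt-rich fractions were passed through a 30 µm strainer and pooled, suspensions with at least 80% viable cells were used, and libraries were made with the 10x Genomics droplet 3′ chemistry. A p-value below sets the goblet-to-other difference against how far such differences varied between these 2 libraries only. The test draws each gene's variation towards a trend over all tested genes, so it is not the gene's own spread alone. How many mice gave each suspension is not stated, so that variation may be technical.

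The retained barcodes held 44932636 UMIs in control 1 and 27310864 in control 2, with medians of 3446 and 3020 UMIs per barcode. Goblet barcodes held 1299254 and 2543210 UMIs, with medians of 2430 and 3608. The 10 deepest goblet barcodes held 34.4% of the goblet UMIs in control 1 and 20.0% in control 2. The libraries shared 17 barcode sequences, none of them a goblet barcode. The median mitochondrial share was 1.28% and 1.81% in goblet barcodes, against 0.179% and 0.195% in other epithelial barcodes.

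The rule gathered barcodes of unequal character. In 92 goblet barcodes of control 1 and 193 of control 2, the 4 gate genes made up 2% or more of the UMIs, and these 285 barcodes held 1154042 of 1299254 and 2422613 of 2543210 goblet UMIs. Their Tff3 level, which the rule did not use, was 64103 CPM (UMIs of the gene per 1000000 UMIs of the class in a library) in control 1 and 64411 CPM in control 2. An Epcam UMI, the epithelial adhesion marker, was present in 90.2% and 94.3% of them, and Atoh1 stood at 197 and 217 CPM. These markers, outside the rule, bore out the label goblet cell.

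The 54 and 91 barcodes with 0.5% to 1% of UMIs in the gate genes were different. Their Tff3 level was 2223 CPM in control 1 and 1538 CPM in control 2, and their medians were 1747 and 1147 UMIs. An Epcam UMI was found in 38.9% and 29.7% of them, and Fabp1, the fatty acid carrier of enterocytes, stood at 23995 and 24019 CPM. Atoh1 was at 28.7 CPM in control 1 and at 0 in control 2. The markers did not bear out the label for these barcodes. They hold a small part of all goblet UMIs, but a larger part of those of Fabp1. From 0.5% to 2%, Fabp1 stood at 20760 and 23430 CPM, against 3217 and 1075 CPM at 2% or more. Between 1% and 2% lay only 17 and 5 barcodes, with Tff3 at 2790 and 1873 CPM and with Atoh1 and Spdef at 0 in both libraries. An Epcam UMI was found in 23.5% and 40% of them, and a UMI of the leukocyte gene Ptprc in 35.3% and 60%. The markers did not bear out the label here either. Just inside the threshold, at 0.5% to 0.6%, 15 and 44 barcodes had Tff3 at 1220 and 1970 CPM, and just outside it, at 0.4% to 0.5%, 16 and 70 barcodes had 883 and 747 CPM.

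**Figure D1:**
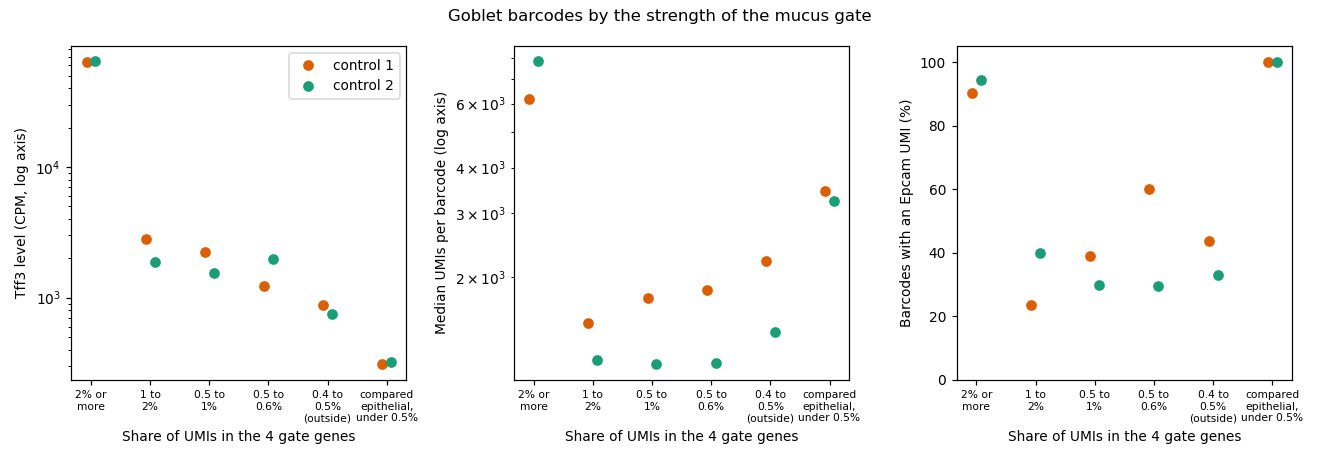
Tff3 level (CPM, log axis), median UMIs per barcode (log axis) and percent of barcodes with an Epcam UMI, by the share of UMIs in the 4 gate genes, with 1 point per library. Barcodes at 2% or more stand apart with Tff3 at 64103 and 64411 CPM and medians of 6183 and 7848 UMIs; the barcodes from 0.5% to 1% lie near those just outside the threshold.

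The condition on Cd3 genes also bears on every fold change below. It removed 67 barcodes of control 1 and 111 of control 2 that met the mucus conditions, most of them (42 and 71) for a single Cd3 UMI. Of the removed barcodes, 35 and 70 had 2% or more of their UMIs in the gate genes, with Tff3 at 64580 and 64134 CPM and medians of 14386 and 12649 UMIs. Goblet barcodes were compared with the 1932 and 1186 other barcodes that had an Epcam UMI and no Ptprc UMI, Ptprc being the pan-leukocyte gene CD45. Of the removed barcodes, 29 and 57 fell into this comparison set, where they held 3.46% and 11.3% of all UMIs but 95.3% and 97.8% of the gate gene UMIs. A second log2 fold change, marked Cd3-free, therefore stands beside those against other epithelial barcodes that are printed with an adjusted p. It is against other epithelial barcodes without any Cd3 UMI and was chosen after seeing the data. The later comparisons with crypt-gated and enterocyte-gated barcodes have no Cd3-free value. Both classes are parts of this comparison set, with a Cd3 UMI in 38 and 20 crypt-gated and in 241 and 165 enterocyte-gated barcodes. Unless another class is named, values given without an adjusted p are against all other epithelial barcodes.

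UMIs were summed over the barcodes of each class in each library, and goblet and other sums were compared with edgeR's quasi-likelihood test with the library as a term. Of 11565 genes tested, 2152 (18.6%) were higher in goblet barcodes and 2649 (22.9%) were lower, so 41.5% passed an adjusted p of 0.05, and the median log2 fold change was -0.08. Of the 4801 genes called, 4800 moved the same way in both libraries. Scaling by total UMIs instead of TMM shifted the median by -0.18 and gave 1701 higher and 3286 lower. The gate genes themselves were left out of the test; in goblet barcodes they took up 24.5% and 27.2% of all UMIs, with Zg16 at 176300 and 177400 CPM, Fcgbp at 42811 and 54480 CPM, Muc2 at 15206 and 22902 CPM and Clca1 at 11076 and 17580 CPM. Without the library term 1009 genes (8.72%) were higher and 829 (7.17%) lower. Shares of list members called are read below against 18.6% and 22.9%, or against 8.72% and 7.17% without the library term. Without the library term, some genes described below as higher or lower did not pass. They included the following, with edgeR adjusted p-values from 0.0518 to 0.278: Tff3, Lypd8, Muc13, St3gal4, Papss2, Hspa5, Calr, Pdia6, Dnajc3, Sec23a, Sec13, Sar1b, Klf4, Sox9, Cdx2, Dll1, Adam10, Maml2, Nlrp6, Nlrc4, Pycard, Il18, Slc26a3, Slc26a6, Car4, Ccnd2, Slc5a1, Cox4i1, Gapdh and Pgam1.

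**Figure D2:**
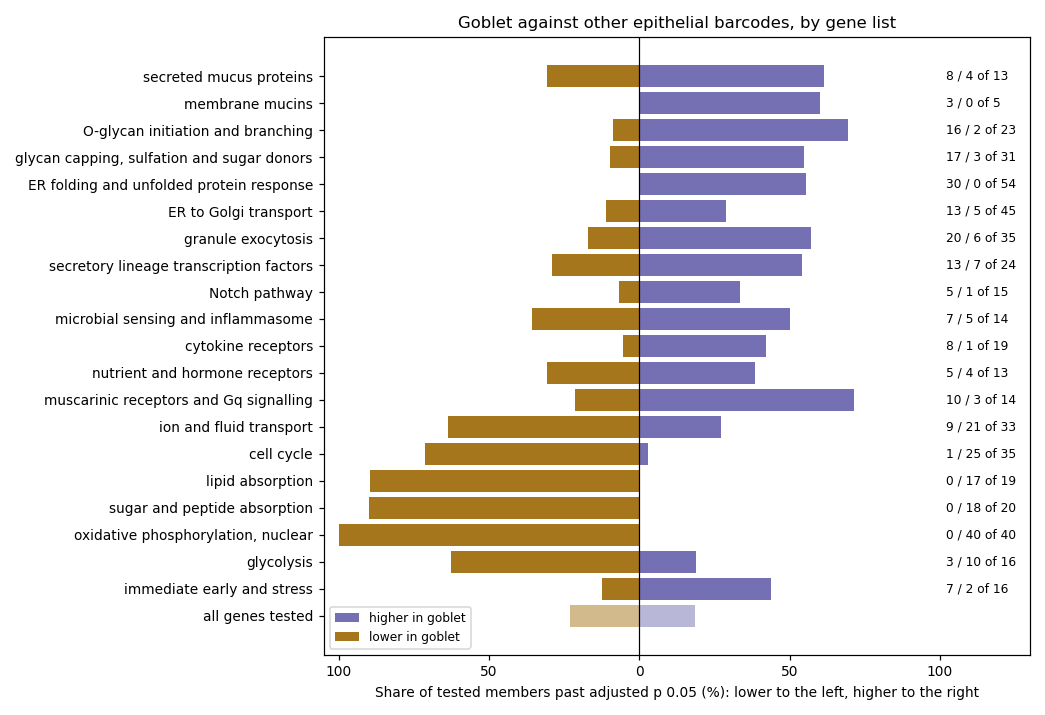
Percent of the tested members of each gene list past an adjusted p of 0.05, lower in goblet barcodes to the left and higher to the right, with the counts higher / lower of tested at the right edge. All genes tested, at the bottom, stand at 22.9% lower and 18.6% higher; the nuclear oxidative phosphorylation list is lower in all 40 members and the ER folding list higher in 30 of 54.

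Secreted proteins of mucus outside the rule ranged from very abundant, as Tff3, to nearly absent. Of 13 tested members of this list, 8 were higher in goblet barcodes, 4 were lower and 1, Ang4, did not pass; the median log2 fold change was 3.59, against -0.08 over all genes. Tff3, the trefoil peptide of intestinal mucus (ENSMUSG00000024029, chromosome 17, 31125306 to 31129611, GRCm38), had 57210 and 61430 CPM in goblet barcodes of control 1 and control 2, against 2160 and 7137 CPM in other epithelial barcodes. Both goblet sums lay far above both other sums, and the log2 fold change was 4.10 (SE 0.57, edgeR adjusted p = 0.00166), or 7.63 against Cd3-free barcodes, where Tff3 had 292 and 395 CPM.

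Agr2, the ER disulfide isomerase that intestinal mucin needs (chromosome 12, 35992925 to 36004081), had 4014 and 2463 CPM in goblet barcodes, against 164 and 357 CPM in other barcodes. Its log2 fold change was 3.88 (SE 0.49, adjusted p = 0.00113), or 5.83 against Cd3-free barcodes. Spink4, a Kazal-type protease inhibitor of secretory cells, had 4806 and 7399 CPM, against 350 and 894 CPM, which gave 3.59 (adjusted p = 4.17e-04, Cd3-free 5.21). Klk1, a secreted serine protease, had 410 and 445 CPM, against 22.4 and 41.3 CPM, which gave 3.99 (adjusted p = 1.99e-04, Cd3-free 6.097). Pla2g10, a secreted phospholipase, had 128 and 127 CPM, against 3.79 and 16.6 CPM, a log2 difference of 4.09, or 8.41 against Cd3-free barcodes (adjusted p = 7.47e-04 and 1.06e-07). In none of these genes did the goblet and other sums overlap, and the share of all tested genes without overlap was not counted.

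The chemokines Ccl6 and Ccl9 and the bacteria-binding anchored protein Lypd8 completed the higher members. Ccl6 had 917 and 1600 CPM in goblet barcodes, against 66.3 and 155 CPM in other barcodes, and a log2 fold change of 3.76 (Cd3-free 5.98). Lypd8 had 4525 and 4407 CPM, against 1259 and 1149 CPM, and a log2 fold change of 2.07 (Cd3-free 2.82). Ccl9 had 35.4 and 60.95 CPM, against 4.46 and 2.36 CPM (3.93, Cd3-free 4.33). The adjusted p was 1.99e-04 for Ccl6, 3.44e-04 for Ccl9 and 0.00176 for Lypd8.

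The summed levels of several proteins often listed with goblet cells were lower here. Reg4, a C-type lectin also made by other deep crypt and endocrine cells, had 36.9 and 42.5 CPM in goblet barcodes, against 747 and 376 CPM in other epithelial barcodes, which gave -3.53 on the log2 scale (adjusted p = 3.44e-04, Cd3-free -4.12). The lectin Itln1 had 83.9 and 136 CPM, against 1362 and 739 CPM (log2 fold change -3.03, adjusted p = 0.00131, Cd3-free -2.01), but -0.47 and not past the threshold with every barcode thinned to 2000 UMIs (adjusted p = 0.209). The share of barcodes with a UMI ran the other way. After thinning to 2000 UMIs, Reg4 was present in 8.91% and 4.44% of goblet barcodes, against 2.18% and 0.78% of Cd3-free other barcodes and 1.15% and 0.908% of T cell barcodes (those with Ptprc and Cd3 UMIs and under 0.5% gate UMIs). Itln1 was present in 12.9% and 15.0% of goblet barcodes, against 7.01% and 7.64% of Cd3-free other barcodes and 2.61% and 2.80% of T cell barcodes. In goblet barcodes at 2% or more gate UMIs, Reg4 was present in 3.95% (exact 95% binomial interval 0.82% to 11.1%) and 4.55%. Itln1 was present in 10.5% and 16.5% of that set. Median depths were 2430 and 3608 UMIs in all goblet barcodes, against 3150 and 3079 in Cd3-free other barcodes and 5494 and 5326 in T cell barcodes. Spink1 and Dmbt1 were the other lower members, at -2.26 and -3.96. Ang4, an antimicrobial ribonuclease, had 36.9 and 256 CPM in goblet barcodes, against 192 and 168 CPM; the sums overlapped, the log2 fold change was -0.55 (adjusted p = 0.498, Cd3-free 0.36), and with every barcode thinned to 2000 UMIs it was 1.80 (adjusted p = 4.42e-09). Retnlb, the resistin-like goblet protein, had 0 and 4.33 CPM in goblet barcodes and no UMI in other barcodes of either library.

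**Figure D3:**
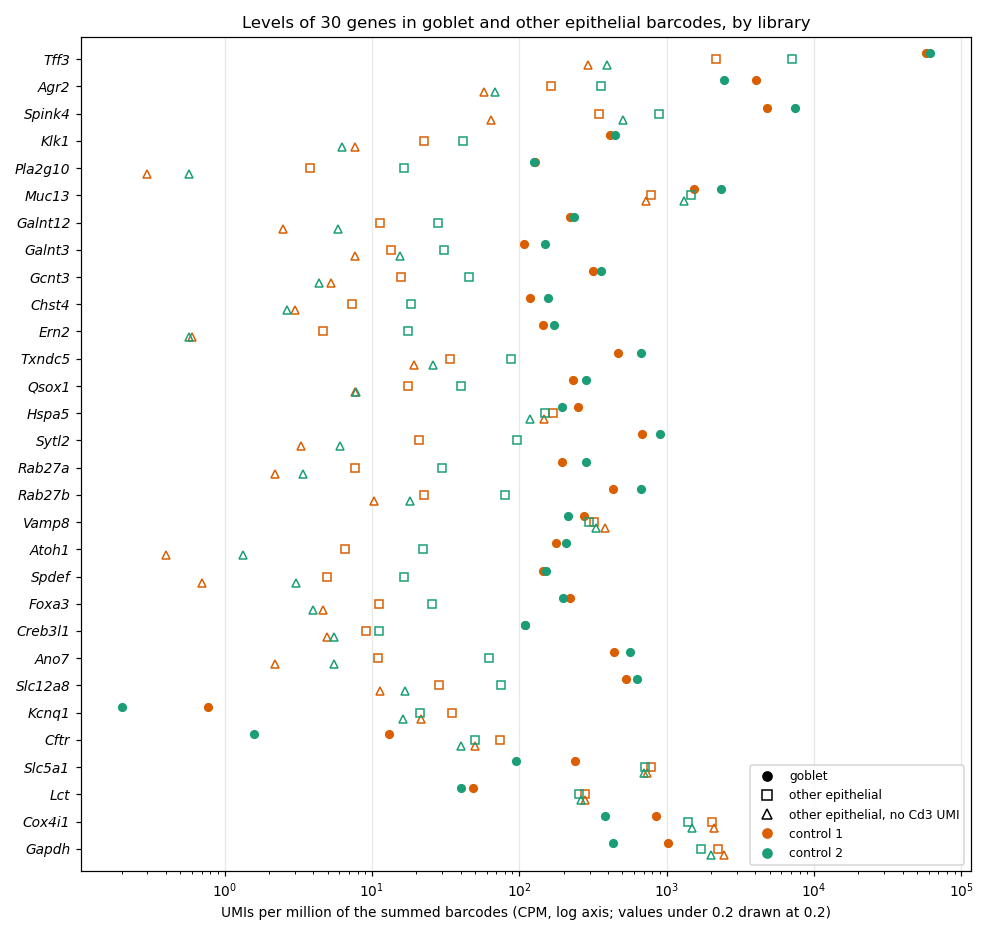
Levels of 30 genes (CPM, log axis) in goblet barcodes (filled circles), other epithelial barcodes (squares) and other epithelial barcodes without a Cd3 UMI (triangles), with 1 colour per library; values under 0.2 are drawn at 0.2. Tff3 lies at 57210 and 61430 CPM in goblet barcodes, against 2160 and 7137 CPM in other barcodes and 292 and 395 CPM in those without a Cd3 UMI, while the Vamp8 levels of the classes lie close together.

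Among membrane mucins, which stay anchored in the apical membrane, 3 of 5 tested members were higher and none was lower (median log2 fold change 1.01). Muc13 averaged 1946 ± 579 CPM in goblet barcodes, against 1119 ± 480 CPM in other barcodes (SD, n = 2 libraries each), a difference of 1.01 on the log2 scale (adjusted p = 0.0194, Cd3-free 1.15). Muc3a had 255 and 316 CPM, against 11.6 and 40.9 CPM (log2 fold change 3.86, adjusted p = 4.17e-04, Cd3-free 5.78), whereas Muc3 had 171 and 232 CPM, against 201 and 259 CPM (-0.02, adjusted p = 0.957, Cd3-free -0.03). These neighbouring mucin genes are near copies of one another, and how reads were split between them is uncertain. The sialomucin Cd164 was the third higher member, at 1.88.

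The enzymes that start and branch the O-linked sugar chains of mucins were mostly higher. Of 23 tested members, 16 were higher and 2 lower (median log2 fold change 1.34), and 12 and 1 passed without the library term. The GalNAc transferases, which place the first sugar on serine or threonine, led the list. Galnt5 had 65.4 and 103 CPM in goblet barcodes, against 3.29 and 11.5 CPM in other barcodes (log2 fold change 3.85, adjusted p = 2.15e-04, Cd3-free 7.51). Galnt12 had 220 and 234 CPM, against 11.3 and 28.2 CPM (3.84, adjusted p = 2.72e-04, Cd3-free 6.04), and Galnt3 had 109 and 151 CPM, against 13.5 and 30.7 CPM (2.82, adjusted p = 2.59e-04, Cd3-free 3.72). Galnt4, Galnt7 and Galnt10 were higher by 2.28, 2.48 and 2.34, while Galnt2 (-0.49) and Galnt11 (0.45) did not pass.

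Enzymes of the next steps differed among themselves. Gcnt3, the branching enzyme that makes core 2 and core 4 structures, had 316 and 358 CPM in goblet barcodes, against 15.8 and 45.7 CPM in other barcodes (log2 fold change 3.81, adjusted p = 3.44e-04), or 6.27 against Cd3-free barcodes. C1galt1c1, the chaperone of the core 1 synthase, had 90.8 and 107 CPM, against 23.0 and 27.2 CPM (2.16, adjusted p = 2.60e-04, Cd3-free 2.64), and the synthase C1galt1 itself was higher by 1.98. B3gnt6, the core 3 synthase, had no UMI in goblet barcodes of either library and 0.725 and 0.449 CPM in other barcodes, too few to compare. Galnt13 also had none, against 8.03 and 20.7 CPM in other barcodes, where it was at least 15.7-fold higher, taking 3 counts over the goblet class as the floor.

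Among enzymes that cap or sulfate the chains and supply sugar donors, 17 of 31 tested were higher and 3 lower (median 0.91; 12 and 1 without the library term). Chst4, a sulfotransferase, had 118 and 156 CPM in goblet barcodes, against 7.31 and 18.5 CPM in other barcodes (log2 fold change 3.69, adjusted p = 1.99e-04, Cd3-free 5.71). The UDP-galactose carrier Slc35a2 had 39.3 and 49.5 CPM, against 9.21 and 11.6 CPM (2.27, adjusted p = 2.88e-04, Cd3-free 2.53). The sulfate transporter Slc26a2 was higher by 1.93 and the sialyltransferase St3gal6 by 1.69. The 3 lower members were St3gal4 (-0.82), the sulfate donor synthase Papss2 (-1.39) and Ugdh (-1.55), which makes UDP-glucuronate. St6galnac1 had no UMI in either class, and Fut2, the fucosyltransferase that makes H antigen, had 0.770 CPM in goblet barcodes of control 1 and 0 in control 2, against 1.73 and 0.674 CPM in other barcodes.

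Genes of protein folding in the ER were higher in part. Of 54 tested members, 30 were higher and none lower (median log2 fold change 0.68), 12 were higher without the library term and 25 with scaling by total UMIs. The largest differences were in redox enzymes and in the goblet isoform of an ER stress sensor. Ern2, the IRE1 isoform of mucous cells, had 146 and 171 CPM in goblet barcodes, against 4.63 and 17.5 CPM in other barcodes (log2 fold change 4.25, adjusted p = 3.38e-04), or 8.16 against Cd3-free barcodes, where it had 0.599 and 0.571 CPM. Txndc5, a disulfide isomerase, had 469 and 668 CPM, against 33.8 and 87.9 CPM (3.53, adjusted p = 2.54e-04, Cd3-free 4.82). Qsox1, a sulfhydryl oxidase of the secretory pathway, averaged 258 ± 36.4 CPM, against 28.8 ± 15.8 CPM (SD, n = 2 libraries each; log2 fold change 3.45, adjusted p = 2.49e-04, Cd3-free 5.22), and the reductase Dnajc10 had 99.3 and 120 CPM, against 12.6 and 20.9 CPM (2.92, adjusted p = 1.99e-04, Cd3-free 3.58).

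General chaperones differed much less. Hspa5, the ER chaperone BiP, had 249 and 196 CPM in goblet barcodes, against 170 and 150 CPM in other barcodes (log2 fold change 0.65, adjusted p = 0.0387, Cd3-free 0.91), and did not pass with DESeq2 (adjusted p = 0.0537). Pdia6 had 126 and 72.7 CPM, against 56.5 and 43.5 CPM (1.13, adjusted p = 0.00406, Cd3-free 1.64). Xbp1, the transcription factor that IRE1 activates by splicing, had 233 and 243 CPM, against 87.9 and 92.1 CPM (1.58, adjusted p = 0.00125, Cd3-free 1.80). The lectin chaperone Canx (0.12), Hsp90b1 (0.39) and P4hb (-0.37) did not pass, nor did the translocon subunits Sec61b (0.03) and Sec61g (-0.02).

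The promoters of ER genes carry known elements, shown here for 3 members that were higher in goblet barcodes, since they set the classical ER stress genes beside the goblet-rich Txndc5. Each window runs up to and slightly past the gene's start, is 300 bases long, is read on the gene's strand from RefSeq sequence of build GRCm38.p6, and has the motif in capitals. In Hspa5 (chr2:34771840-34772139, plus strand) and Pdia6 (chr12:17266339-17266638, plus strand) the capitals mark the ER stress element, which is CCAAT, then 9 bases of any kind, then CCACG, and in Txndc5 (chr13:38527865-38528164, minus strand) they mark TGACGTGG, a motif bound by XBP1 and ATF6.
Hspa5: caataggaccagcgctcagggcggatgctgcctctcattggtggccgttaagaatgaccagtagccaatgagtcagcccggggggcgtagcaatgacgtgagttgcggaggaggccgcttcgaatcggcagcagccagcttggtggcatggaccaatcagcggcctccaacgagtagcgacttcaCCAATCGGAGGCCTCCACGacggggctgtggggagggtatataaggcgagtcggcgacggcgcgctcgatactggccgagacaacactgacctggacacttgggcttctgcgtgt
Pdia6: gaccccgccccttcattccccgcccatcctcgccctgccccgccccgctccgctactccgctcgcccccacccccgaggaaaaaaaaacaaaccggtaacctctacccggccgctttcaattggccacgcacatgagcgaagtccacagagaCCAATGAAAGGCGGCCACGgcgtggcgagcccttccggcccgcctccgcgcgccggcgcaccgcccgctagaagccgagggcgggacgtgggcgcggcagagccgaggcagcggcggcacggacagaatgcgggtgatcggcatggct
Txndc5: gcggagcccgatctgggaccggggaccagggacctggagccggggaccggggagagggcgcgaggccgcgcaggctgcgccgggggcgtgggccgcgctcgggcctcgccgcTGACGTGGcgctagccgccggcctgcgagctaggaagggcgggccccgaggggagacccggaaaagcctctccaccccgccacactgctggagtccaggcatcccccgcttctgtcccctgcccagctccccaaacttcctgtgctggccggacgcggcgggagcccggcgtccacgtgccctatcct
Searched on both strands, the ER stress element occurred in 39 of 32851 promoter windows of all genes (0.119%) and in 9 of the 49 windows of the 44 list genes that matched the sequence table (18.4%). Of the 28 windows of the 24 matched members higher in goblet barcodes, 4 held it (14.3%), those of Calr, Dnajc3, Hspa5 and Pdia6. TGACGTGG, which does not overlap the other motif in these 3 windows, occurred in 222 windows of all genes (0.676%) and in 2 of the 49 (4.08%), those of Txndc5 and Txndc11. A match is a description of the letters and not of binding.

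Carriers between ER and Golgi showed no common shift against other epithelial barcodes. Of 45 tested members 13 were higher and 5 lower, with a median log2 fold change of 0.03, or -0.15 with scaling by total UMIs. Ergic1, a cargo receptor component, had 50.8 and 60.6 CPM in goblet barcodes, against 12.1 and 13.0 CPM in other barcodes (log2 fold change 2.33, adjusted p = 2.54e-04, Cd3-free 3.04). Mia3, the TANGO1 receptor for bulky cargo, had 185 and 251 CPM, against 56.6 and 76.6 CPM (1.89, adjusted p = 6.00e-04, Cd3-free 2.31). The Golgi protein Golm1 was higher by 2.10 and the retrieval receptor Kdelr3 by 2.32. The coat subunits Sec13 (-1.10) and Sec23a (-0.90) were lower, and the chylomicron carrier GTPase Sar1b had 98.5 and 63.3 CPM, against 257 and 177 CPM (-1.25, adjusted p = 0.00312, Cd3-free -1.39).

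Granule exocytosis genes moved in both directions. Of 35 tested members 20 were higher, 6 lower and 9 did not pass (median log2 fold change 1.15), with 18 higher and 5 lower without the library term. Rab27a and Rab27b, the GTPases that mark secretory granules, were among the higher members, with several of their effectors; Stx3, Vamp2, Rab3d, Rab37, Syt7 and Unc13b, of vesicle docking and fusion, were higher as well. Rab27a had 196 and 284 CPM in goblet barcodes, against 7.70 and 29.9 CPM in other barcodes (log2 fold change 4.10, adjusted p = 2.95e-04, Cd3-free 6.59), and Rab27b had 433 and 669 CPM, against 22.6 and 80.4 CPM (3.83, adjusted p = 3.08e-04, Cd3-free 5.46). The Rab27 effector Sytl2 (chromosome 7, 90302211 to 90410719) had 684 and 896 CPM, against 20.9 and 96.1 CPM (4.29, adjusted p = 6.00e-04), or 7.62 against Cd3-free barcodes, where it had 3.29 and 6.09 CPM.

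Sytl5 (4.13), Myrip (4.05), Sytl4 (3.59) and Sytl1 (2.80), all Rab27 effectors, were also higher, as was the motor Myo5c with 319 and 416 CPM in goblet barcodes, against 12.7 and 44.6 CPM in other barcodes (4.10, Cd3-free 6.55). Stxbp2, a Munc18 protein that holds syntaxins, had 61.6 and 55.4 CPM, against 55.6 and 61.9 CPM (0.17, adjusted p = 0.523, Cd3-free 0.07), and the granule SNARE Vamp8 had 275 and 215 CPM, against 323 and 300 CPM (-0.18, adjusted p = 0.543, Cd3-free -0.37). Neither passed the test, and the Stxbp2 sums overlapped. The 6 lower members included neuroendocrine release genes: Cadps, Rimbp2 and Syt13 had no UMI in goblet barcodes, and in other barcodes Cadps, at 33.3 and 30.3 CPM, was at least 41.4-fold higher.

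Among transcription factors of the secretory lineages, 13 of 24 tested were higher, 7 lower and 4 did not pass (median log2 fold change 0.81). Spdef, which drives goblet maturation, had 146 and 151 CPM in goblet barcodes, against 4.97 and 16.4 CPM in other barcodes (log2 fold change 4.17, adjusted p = 3.44e-04), or 6.69 against Cd3-free barcodes. Creb3l4, a relative of the ER-tethered factor Creb3l1, had 37.7 and 45.2 CPM, against 3.12 and 7.08 CPM (3.26, adjusted p = 2.60e-04, Cd3-free 5.17). The forkhead factors Foxa2 and Foxa1, which open chromatin at secretory genes, were higher by 2.90 and 2.10. Atoh1 (4.13) and Foxa3 (3.81) moved the same way.

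Klf4, a factor of differentiated goblet and surface cells, had 493 and 560 CPM in goblet barcodes, against 174 and 293 CPM in other barcodes (log2 fold change 1.40, adjusted p = 0.00418, Cd3-free 1.40). Gfi1, which separates goblet and Paneth from endocrine fates, had 8.47 and 12.6 CPM, against 1.06 and 3.03 CPM (2.59, adjusted p = 0.00390, Cd3-free 3.84). The lower members held the endocrine factors: Neurod1 and Insm1 had no UMI in goblet barcodes of either library, and in other barcodes they were at least 34.2-fold and 8.59-fold higher. Nkx2-2 (-4.49) and Pax6 (-3.97) were also lower, as were the glucocorticoid receptor Nr3c1 (-1.84), the intestinal identity factor Cdx2 (-1.003) and the crypt factor Sox9 (-0.93), which did not pass against Cd3-free barcodes (adjusted p = 0.0879).

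In barcodes at 2% or more gate UMIs, a UMI of Atoh1 was present in 66.3% and 68.9%, against 0.438% and 0.975% of T cell barcodes, which should lack it. Hepacam2, an adhesion protein of secretory cells, was detected in 76.1% and 90.7% of these goblet barcodes, against 1.20% and 2.67% of T cell barcodes. Medians were 6183 and 7848 UMIs in these goblet barcodes and 5494 and 5326 in T cell barcodes. With each barcode thinned to 2000 UMIs, Atoh1 was detected in 32.9% and 38.1% of the 76 and 176 goblet barcodes deep enough. These shares, and the T cell class used as a background, were chosen after seeing the data.

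Of 15 tested genes of the Notch list 5 were higher and 1 lower (median log2 fold change near 0; 2 and 1 without the library term). The ligand Dll4 had 30.8 and 41.7 CPM in goblet barcodes, against 3.18 and 8.76 CPM in other barcodes (log2 fold change 2.86, adjusted p = 4.82e-04, Cd3-free 4.08), and Dll1 had 11.6 and 22.8 CPM, against 5.69 and 9.33 CPM (1.36, adjusted p = 0.00578, Cd3-free 2.07). Hepacam2, which the list holds but which is an adhesion protein and no Notch component, had 569 and 759 CPM, against 48.6 and 103 CPM (3.40, adjusted p = 2.49e-04, Cd3-free 4.199). The receptor Notch1 was the lower member, with 0.770 and 0.393 CPM, against 4.97 and 3.71 CPM (-2.77, adjusted p = 0.0239, Cd3-free -2.59). The ligand-cleaving protease Adam10 and the coactivator Maml2 made up the rest, at 1.20 and 1.01; Maml2 did not pass with DESeq2 (adjusted p = 0.223).

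Inflammasome and microbial sensing genes were divided: of 14 tested, 7 were higher and 5 lower (median log2 fold change 0.75), but only 2 and 0 passed without the library term. Nlrp6, a sensor linked to mucus release in the colon, had 44.6 and 5.51 CPM in goblet barcodes, against 131 and 79.2 CPM in other barcodes (log2 fold change -2.27, adjusted p = 0.00614, Cd3-free -2.31). Its adaptor Pycard had 155 and 77.9 CPM, against 578 and 365 CPM (-1.89, adjusted p = 0.00103, Cd3-free -1.87), and the cytokine Il18 had 125 and 39.3 CPM, against 261 and 167 CPM (-1.38, adjusted p = 0.00722, Cd3-free -1.64). The flagellin receptors went the other way. Naip6 had 109 and 175 CPM, against 25.1 and 58.7 CPM (2.01, adjusted p = 6.25e-04, Cd3-free 2.48), Naip5 was higher by 1.49, and their partner Nlrc4 had 112 and 117 CPM, against 66.2 and 76.9 CPM (0.86, adjusted p = 0.00970, Cd3-free 0.94).

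Of 19 tested cytokine receptors 8 were higher and 1, Ifnar2 (-1.10), was lower (median 0.70; 4 and 1 without the library term). Tnfrsf21, the death receptor DR6, had 49.3 and 66.5 CPM in goblet barcodes, against 9.09 and 13.0 CPM in other barcodes (log2 fold change 2.57, adjusted p = 2.05e-04, Cd3-free 3.22). The interleukin 17 receptor chain Il17rc was higher by 1.27 and the interferon gamma receptor Ifngr1 by 1.27. Receptor chains for cytokines known to drive goblet responses did not pass: Il13ra1 had 62.3 and 74.7 CPM, against 52.5 and 70.2 CPM (0.34, adjusted p = 0.176, Cd3-free 0.40), and Il22ra1 had 13.1 and 22.8 CPM, against 8.20 and 23.8 CPM (0.37, adjusted p = 0.304, Cd3-free 0.68).

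Receptors for nutrients, hormones and transmitters gave 5 higher and 4 lower of 13 tested (median 0.25). Ramp1, a partner of the receptor for calcitonin gene-related peptide, had 356 and 330 CPM in goblet barcodes, against 12.8 and 44.6 CPM in other barcodes (log2 fold change 4.00, adjusted p = 7.57e-04, Cd3-free 6.51). The ATP-gated channel P2rx4 had 237 and 287 CPM, against 21.9 and 44.0 CPM (3.24, adjusted p = 2.38e-04, Cd3-free 4.27). The fatty acid receptor Ffar4 was higher by 3.66, and the short-chain fatty acid receptor Ffar2 by 1.73 with 12.3 and 13.0 CPM, against 4.80 and 3.93 CPM. Vipr1, the receptor for vasoactive intestinal peptide, had 14.6 and 7.86 CPM, against 60.1 and 58.9 CPM (-2.32, adjusted p = 8.89e-04, Cd3-free -2.38), and the serotonin receptor Htr4 had no UMI in goblet barcodes, against 7.36 and 3.37 CPM, at least 7.74-fold more; with mucus-gated barcodes that had Cd3 UMIs kept as goblet, its log2 fold change was 0.25. Of 14 tested muscarinic and Gq genes 10 were higher and 3 lower (median 1.43); Prkca, a protein kinase C, had 588 and 620 CPM in goblet barcodes, against 222 and 257 CPM in other barcodes (1.52, adjusted p = 0.00225, Cd3-free 1.89).

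Salt and fluid transport genes were mostly lower: 21 of 33 tested were lower and 9 higher (median log2 fold change -1.74; 10 and 8 without the library term). The higher members were a distinct group. Ano7, an anoctamin, had 438 and 562 CPM in goblet barcodes, against 11.1 and 62.8 CPM in other barcodes (log2 fold change 4.38, adjusted p = 8.47e-04), or 7.30 against Cd3-free barcodes. The cation-chloride cotransporter family member Slc12a8 had 534 and 631 CPM, against 28.6 and 75.2 CPM (3.82, adjusted p = 2.96e-04, Cd3-free 5.58), and the potassium channel Kcnk6 had 76.2 and 95.2 CPM, against 2.18 and 10.0 CPM (4.24, adjusted p = 3.87e-04, Cd3-free 7.22). The related channel Kcnk1 (3.06), the sodium channel subunit Scnn1a (3.20), Car8 (2.96) and the pump regulator Fxyd3 (2.50) were also higher.

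On the lower side, Car4, the membrane carbonic anhydrase of villi, had 3.08 and 0.393 CPM in goblet barcodes, against 66.3 and 10.0 CPM in other barcodes (log2 fold change -4.28, adjusted p = 2.86e-04, Cd3-free -3.91). The exchangers Slc26a3 (-2.29), Slc26a6 (-2.20) and Slc9a3 (-1.93) were lower too. Slc12a2, the basolateral chloride loader, had 68.5 and 60.6 CPM, against 78.7 and 38.4 CPM; the sums overlapped, and the log2 fold change was 0.41 (adjusted p = 0.196), or 1.05 against Cd3-free barcodes (adjusted p = 0.00253). Best2, the bestrophin of colonic goblet cells, had no UMI in either class. Cftr (-3.22) and Kcnq1 (-6.38) were lower, with 13.1 and 1.57 CPM of Cftr in goblet barcodes, against 74.3 and 49.9 CPM.

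Genes of nutrient absorption were lower. In the lipid list 17 of 19 tested were lower and none was higher (median log2 fold change -1.86), and in the sugar and peptide list 18 of 20 were lower and none was higher (-2.11); 6 and 9 of these passed without the library term. Lct, lactase, had 48.5 and 40.5 CPM in goblet barcodes, against 279 and 255 CPM in other barcodes (log2 fold change -2.41, adjusted p = 3.21e-04, Cd3-free -2.43). The glucose transporter Slc5a1 had 239 and 94.4 CPM, against 786 and 712 CPM (-2.13, adjusted p = 0.00258, Cd3-free -2.08). Apoc3, an apolipoprotein of chylomicrons, had 276 and 449 CPM, against 1699 and 1649 CPM (-2.07, adjusted p = 0.00173, Cd3-free -2.30). Enterocyte transcripts were also found in T cell barcodes: Fabp1 was detected in 87.0% and 87.0% of goblet barcodes at 2% or more gate UMIs, against 81.5% and 79.0% of T cell barcodes. After thinning to 2000 UMIs the shares were 60.5% and 44.9% in goblet barcodes, against 52.2% and 51.2% in T cell barcodes, so the classes were close and their order differed between the libraries.

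Energy genes differed in direction by step. All 40 tested nuclear genes of oxidative phosphorylation were lower (median log2 fold change -1.40), but none passed without the library term. Cox4i1, a cytochrome c oxidase subunit, had 842 and 379 CPM in goblet barcodes, against 2026 and 1391 CPM in other barcodes (log2 fold change -1.39, adjusted p = 0.00682, Cd3-free -1.46). Of 16 tested glycolysis genes 10 were lower and 3 higher (median -1.11; 1 and 3 without the library term). The lower ones were 8 enzymes and the lactate carriers Slc16a1 and Slc16a3, among them Gapdh with 1026 and 432 CPM, against 2223 and 1701 CPM (-1.37, adjusted p = 0.0105, Cd3-free -1.56), and Pgam1 (-1.81).

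The 3 higher members were those of glucose entry. Slc2a1, the glucose transporter GLUT1, had 49.3 and 58.6 CPM in goblet barcodes, against 4.74 and 6.97 CPM in other barcodes (log2 fold change 3.39, adjusted p = 1.64e-04), or 4.67 against Cd3-free barcodes. Hk2, hexokinase, which traps glucose by phosphorylation, had 133 and 241 CPM, against 16.7 and 36.2 CPM (3.04, adjusted p = 1.99e-04, Cd3-free 4.09), and Hk1 had 23.1 and 42.9 CPM, against 4.63 and 10.3 CPM (2.33, adjusted p = 3.96e-04, Cd3-free 3.41). For all 3 genes, picked because they were called higher, both goblet sums lay above both other sums. All 3 also passed without the library term.

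Cell cycle genes were lower in 25 of 35 tested members and higher in 1, Ccnd2 (0.78), with a median log2 fold change of -2.11; 10 and 0 passed without the library term. Against enterocyte-gated barcodes 3 of 17 tested were higher and 2 lower (0.47). The kinase Cdk1 had 3.08 and 0.786 CPM in goblet barcodes, against 23.0 and 17.9 CPM in other barcodes (log2 fold change -3.44, adjusted p = 0.00118, Cd3-free -3.09). Mki67, the proliferation antigen, had 16.2 and 1.18 CPM, against 21.5 and 20.9 CPM, and did not pass (-1.48, adjusted p = 0.0865, Cd3-free -0.75). Immediate early and stress genes, which can move with tissue dissociation, were higher in 7 of 16 and lower in 2 (median 0.52), with none past the threshold without the library term; Fos had 239 and 130 CPM in goblet barcodes, against 159 and 112 CPM (0.58, adjusted p = 0.0609, Cd3-free 0.65).

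Among genes at 20 CPM or more in goblet barcodes of both libraries, the 10 with the highest log2 fold change were Pla2g10os, Hs3st5, Wincr1, Ano7, Id4, Fer1l6, Capn8, Sytl2, Ido1 and Ern2. Hs3st5, a heparan sulfate sulfotransferase, had 204 and 287 CPM in goblet barcodes, against 5.13 and 26.2 CPM in other barcodes, or 2.79 and 1.90 CPM in Cd3-free ones. Fer1l6, of the ferlin family of calcium-binding membrane proteins, had 907 and 1289 CPM, against 26.4 and 139 CPM, or 2.89 and 7.42 CPM in Cd3-free barcodes. Ido1, which breaks down tryptophan, had 1074 and 1957 CPM, against 32.7 and 220 CPM, and a UMI in 73.9% and 88.1% of goblet barcodes at 2% or more gate UMIs, against 2.03% and 7.74% of T cell barcodes.

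Capn8, a calpain of mucous cells of the stomach, had 83.1 and 135 CPM in goblet barcodes, against 2.73 and 11.9 CPM in other barcodes (log2 fold change 4.30, Cd3-free 7.13). Id4, an inhibitor of helix-loop-helix factors, had 32.3 and 26.0 CPM, against 0.781 and 2.81 CPM (log2 fold change 4.34, Cd3-free 7.25). Pla2g10os overlaps Pla2g10 and, with the strand setting of the counting not given, reads of both cannot be told apart; it had 178 and 192 CPM, against 3.46 and 18.3 CPM. In each of the 10 genes both goblet sums exceeded both other sums, which choosing them by fold change largely fixes.

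Of the 10 genes with the lowest log2 fold change at 20 CPM or more in other barcodes of both libraries, Cacna2d1, Cadps, Neurod1, Shisa9, Ambp and Rimbp2 had no UMI in goblet barcodes of either library, and in other barcodes Cacna2d1, a calcium channel subunit, was at least 64.0-fold higher. With DESeq2 Cacna2d1 (adjusted p = 0.0958), Cadps (0.132), Neurod1 (0.144) and Shisa9 (0.178) did not pass. The others were Defa23, Kcnb2, Scg2 and Afp, with at most 3 UMIs each in the goblet barcodes of a library. Scg2, a secretogranin of endocrine granules, had 0 and 0.393 CPM in goblet barcodes, against 43.5 and 49.5 CPM in other barcodes. Defa23 belongs to the Paneth cell defensins, a family of near-identical genes whose counts are uncertain.

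Markers of other cell types gave the following sums in goblet barcodes. The 10 enterocyte markers summed to 17701 and 9326 CPM, against 56678 and 50621 CPM in other epithelial barcodes. The 8 B and plasma cell markers summed to 43.9 and 65.7 CPM, against 3068 and 2663 CPM. The immunoglobulin gene Igkc alone had 2314 and 1697 CPM in other epithelial barcodes, which thus carried plasma cell transcripts. The 12 enteroendocrine markers summed to 296 and 259 CPM, against 4731 and 3045 CPM in other epithelial barcodes, with Neurod1 and Gcg at 0 in both libraries. Most of that goblet sum was Sct, secretin, at 240 and 218 CPM, against 1283 and 426 CPM in other barcodes; a Sct UMI was present in 59.8% and 60.1% of goblet barcodes at 2% or more gate UMIs, against 5.341% and 5.202% of T cell barcodes. After thinning to 2000 UMIs these shares were 39.5% and 30.1% in goblet barcodes, against 2.12% and 1.82% in T cell barcodes.

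Paneth markers summed to 1313 and 2801 CPM in goblet barcodes, against 31724 and 22179 CPM, and the defensin Defa24 was seen in 62.0% and 81.3% of goblet barcodes at 2% or more gate UMIs, against 46.0% and 65.0% of T cell barcodes, or 40.8% and 44.9% against 21.6% and 37.0% after thinning. Stem markers summed to 88.5 and 72.4 CPM, against 471 and 257 CPM, and tuft markers to 5.39 and 8.65 CPM, against 17.4 and 11.5 CPM. T and NK markers summed to 341 and 361 CPM, against 419 and 520 CPM, with the Cd3 genes at 0 by the rule. Erythroid markers summed to 6246 and 5549 CPM, against 4397 and 10742 CPM, and myeloid markers to 178 and 241 CPM, against 139 and 82.9 CPM. Among goblet barcodes of control 1, the hemoglobin gene Hbb-bs had 25040 CPM at 0.5% to 2% gate UMIs, against 314.5 CPM at 2% or more. In control 2 it had 2347 and 3000 CPM. The part of these transcripts in the results was not tested.

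Against crypt-gated barcodes, 9968 genes were tested, of which 2599 (26.1%) were higher in goblet barcodes and 2901 (29.1%) lower, 55.2% in all. The crypt class had 169 and 62 barcodes, with 3 or more stem or cycling markers and under 2% of UMIs in 5 absorptive genes. The 10 deepest of them held 49.0% and 60.3% of the crypt UMIs, so crypt levels rest largely on few barcodes. The mucus gate genes made up 0.105% and 2.18% of the crypt UMIs, and at most 1.54% and 52.3% of those of a single barcode. Here 25 of 31 tested exocytosis genes were higher and 3 lower (median log2 fold change 1.73), and 22 of 44 ER to Golgi genes were higher and none lower (0.66). Rab27a had 196 and 284 CPM in goblet barcodes, against 3.85 and 18.7 CPM in crypt-gated barcodes (log2 fold change 5.04, adjusted p = 1.31e-04).

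Some differences from other epithelial barcodes took the opposite sign against crypt-gated ones; the comparisons share the goblet sums. In the sugar and peptide list 11 of 20 were higher than in crypt-gated barcodes and none lower (median 1.05), and in the lipid list 8 of 13 higher and 1 lower (1.51). Choosing crypt barcodes by a low share of absorptive genes favours this direction for both absorption lists. Klf4 had 493 and 560 CPM in goblet barcodes, against 23.7 and 29.0 CPM in crypt-gated barcodes (4.60, adjusted p = 1.23e-04). Oxidative phosphorylation genes remained on the lower side, 31 of 40 lower and none higher (-1.19), and of the 26 cell cycle genes not used for the gate 23 were lower and 1 higher (-4.16), a direction that choosing crypt barcodes by cycling markers largely fixes. Hspa5 had 249 and 196 CPM, against 162 and 375 CPM, with overlapping sums (0.12, adjusted p = 0.784).

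Against enterocyte-gated barcodes (1505 and 915), 10218 genes were tested, 2294 (22.5%) higher and 2641 (25.8%) lower, 48.3% in all. Of 13 secreted mucus proteins 11 were higher and 2 lower (median log2 fold change 4.95), of 19 transcription factors 16 higher and 2 lower (3.44), and of 40 oxidative phosphorylation genes all 40 lower (-1.89). Reg4 had 36.9 and 42.5 CPM in goblet barcodes, against 5.74 and 10.4 CPM in enterocyte-gated barcodes (2.35, adjusted p = 4.15e-04), the reverse of its sign against all other epithelial barcodes. Ang4 had 36.9 and 256 CPM, against 2.45 and 4.72 CPM (4.95, adjusted p = 1.24e-04). ER to Golgi genes were divided, 13 higher and 16 lower of 44 (-0.19). The differences between the comparisons were not tested.

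**Figure D4:**
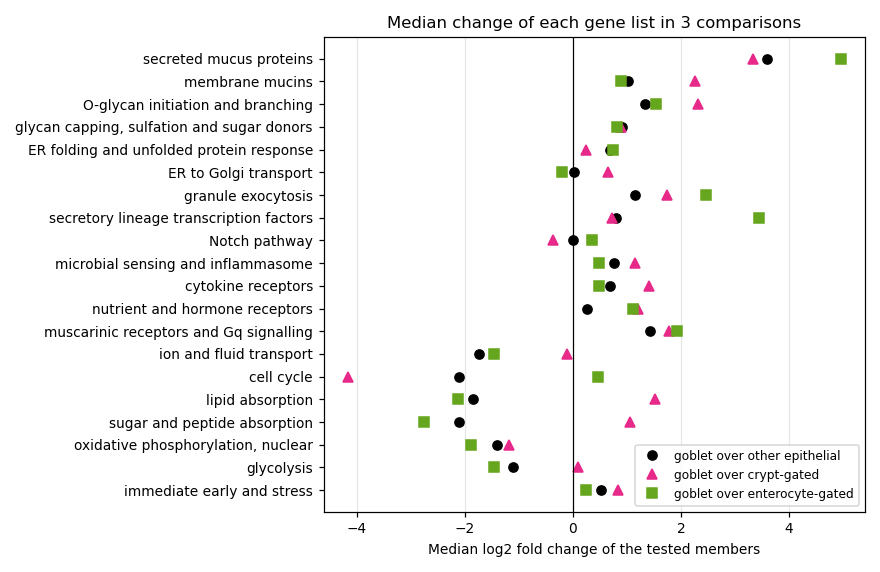
Median log2 fold change of the tested members of each gene list, goblet over other epithelial (circles), over crypt-gated (triangles) and over enterocyte-gated barcodes (squares). Sugar and peptide absorption stands at 1.05 over crypt-gated, against -2.11 over other epithelial and -2.76 over enterocyte-gated barcodes, while secreted mucus proteins lie above 3 in each comparison. The crypt and enterocyte gates both used absorptive genes, which favours these signs for the absorption lists.

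Goblet barcodes also varied among themselves, described here in barcodes thinned to 2000 UMIs by the Fano factor, the variance of counts over their mean, without a test. Over the 101 and 180 goblet barcodes deep enough, the median Fano factor of 929 genes was 1.44 in control 1 and 1.29 in control 2. The 10 highest were Hbb-bs, Hba-a1, Gm42418, Hba-a2, Fabp1, Tff3, Defa24, Malat1, Fabp2 and Spink4. Hemoglobin genes, of red blood cells, reached 365 and 345 (Hbb-bs), and Hbb-bs had a UMI in 54.5% and 63.3% of these barcodes. Among barcodes at 2% or more gate UMIs, Hbb-bs was not among the 15 genes ranked highest. Fabp1 reached 51.0 and 58.4, and 24.7 and 36.1 among barcodes at 2% or more gate UMIs.

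Within the 76 and 176 barcodes at 2% or more gate UMIs, a set chosen after seeing the data, Tff3 remained variable, with Fano factors of 54.0 and 45.3. Its count per 2000 UMIs was 1 at the lowest, 112.5 at the median and 286 at the highest in control 1, and 1, 121.5 and 293 in control 2. Spink4 had medians of 2 and 4 and highest counts of 114 and 120 (Fano factors 49.2 and 32.1). Malat1, a nuclear noncoding RNA, had medians of 10 and 25.5 and highest counts of 130 and 190 (32.7 and 32.5). So a barcode with many Spink4 molecules was the exception, while most held Tff3.

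Counts of secreted products were positively correlated across these barcodes, with Spearman correlations of 0.42 in control 1 and 0.64 in control 2 for Tff3 with Spink4, and of 0.66 and 0.61 for Tff3 with Lypd8. Tff3 and Malat1 were correlated at -0.54 and -0.66. Malat1 and Neat1, another nuclear RNA, were correlated at 0.79 and 0.68. Gm42418, a gene that overlaps ribosomal RNA sequence, and Camk1d were correlated at 0.75 and 0.68. All counts share the fixed total of 2000 UMIs per barcode and the library, and barcodes are not replicates.

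**Figure D5:**
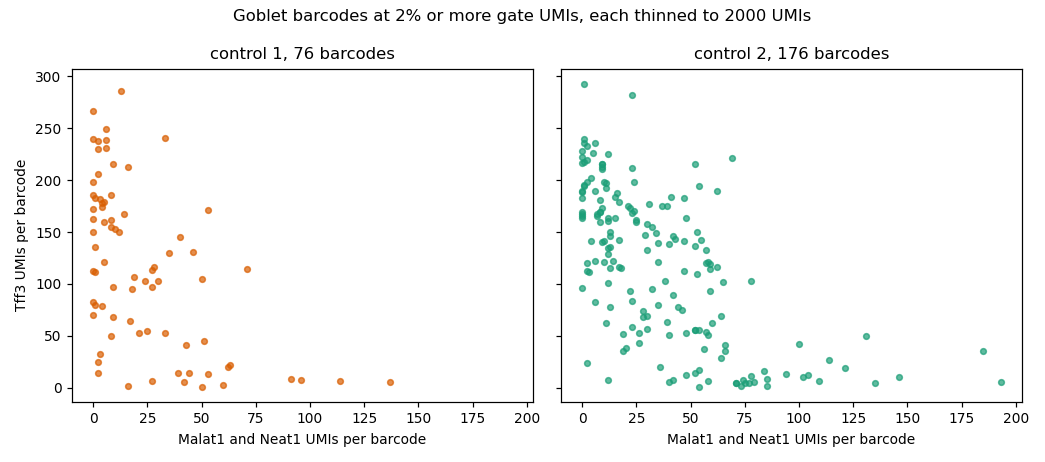
Tff3 UMIs against the sum of Malat1 and Neat1 UMIs, 1 point per goblet barcode at 2% or more gate UMIs, each thinned to 2000 UMIs, for control 1 (76 barcodes, left) and control 2 (176 barcodes, right). Tff3 ranged from 1 to 286 and from 1 to 293 UMIs, and the barcodes with the most Malat1 and Neat1 have few Tff3 UMIs.

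The goblet sums of the 2 libraries differed for some genes, with 1 library on each side and hence no test. Of 2963 genes at 50 CPM or more in a goblet sum, 47 differed 4-fold or more, 18 higher in control 2 and 29 higher in control 1. Il31ra, a cytokine receptor chain, had 197 CPM in goblet barcodes of control 2 and 2.31 CPM in those of control 1, and 150 and 2.01 CPM in other epithelial barcodes of the same libraries. Gm15564 had 122 CPM in control 2 and 1.54 CPM in control 1, and 113 and 0.837 CPM in other barcodes, so both differences were also present in other epithelial barcodes.

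Other differences were not seen to the same size in other barcodes. Ntm, a neuronal adhesion molecule, had 130 CPM in goblet barcodes of control 1 and 23.2 CPM in those of control 2, while other barcodes had 1.62 CPM in control 1 and 11.5 CPM in control 2; 1 barcode held 57.4% of its goblet UMIs in control 1. Ang4 had 36.9 CPM in goblet barcodes of control 1 and 256 CPM in those of control 2. Enterocyte genes such as Sis (539 and 79.0 CPM) and Anpep (192 and 22.8 CPM) were higher in goblet barcodes of control 1. Some values rested on 1 barcode, which held 55.9% of the goblet UMIs of Lyz2, 90.2% of those of Mmp7, 92.0% of those of Rnase1 and 96.0% of those of Defa17 in control 2.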

How the data were processed

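Single-cell RNA-seq of 2 control libraries was used. The authors deposited UMI counts per gene and barcode, made with Cell Ranger 7.1.0 per the file headers. The submitters' processing notes list mm10 and GRCm38 without saying which was used where, and Cell Ranger 6.1 beside version 7.1.0. The gene annotation release, the barcode filter and the intron and strand settings are not given in the sources used here.

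Raw counts were summed per class and library. The goblet sums of each library were compared with the other sums of the same library by edgeR 4.0.16 (R 4.3.3; quasi-likelihood test, library as a term, TMM scaling, filterByExpr, Benjamini-Hochberg adjustment over all tested genes, threshold 0.05). Class sums of 1 library come from the same suspension, which is why the library is a term. Muc2, Fcgbp, Clca1, Zg16, Epcam, Ptprc and the Cd3 genes were left out of the tests. Stem, cycling and absorptive gate genes were also left out of the crypt comparison. The scripts were tested on simulated counts with known changes. The simulated library effect was the same in goblet and other sums, and all genes had the same dispersion. So the simulation does not show how the test behaves where the goblet-to-other difference depends on the library. Scrublet (scanpy 1.11.5) called 5 of 7120 and 28 of 4742 barcodes doublets, so in control 1 it did not work, and no doublet was removed.

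Members and gene lists were chosen with earlier results of these data known. In each list the text names up to 4 called members with the largest change that moved the same way in both libraries, and members fixed with the list. Other members given with values, such as further GalNAc transferases, were chosen after their values were seen. Over all genes it names the 10 highest and 10 lowest at 20 CPM or more in both libraries on the higher side, and the 10 highest Fano factors. Alternatives were other scalings, filters, gates and mitochondrial limits, DESeq2 1.42.0, thinning, no library term, and each library alone, which gives a log2 ratio with no test. After seeing the data, Cd3-free other barcodes, goblet barcodes with Cd3 UMIs kept, and the 2% gate with Cd3-free others were added. Some genes are not reported here.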

Additional observations from a re-analysis of the deposited data

How the results depend on the processing

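Against other epithelial barcodes, the count of higher genes (2152) was 1266 with DESeq2, 1009 with no replicate block (no library term) and 1390 where an absolute log2 fold change of 1 was required, and the count of lower genes (2649) was 1490 with DESeq2 and 829 with no replicate block. Of the 4801 calls, 1838 were made the same way with no replicate block and 2747 with DESeq2. Against crypt-gated barcodes, DESeq2 gave 1576 higher and 1672 lower, and thinning to 2000 UMIs gave 1113 higher and 1233 lower. Against enterocyte-gated barcodes, the lower genes numbered 1725 with DESeq2, 1591 with no replicate block and 1737 after thinning. The goblet share of barcodes was 3.09% in control 1 and 11.1% in control 2 with a gate of 0.25%, 1.53% and 4.18% with 1%, 1.29% and 4.07% with 2%, 1.38% and 3.99% where an Epcam UMI and no Ptprc UMI were required, and 3.23% and 8.44% where barcodes with Cd3 UMIs were kept. Ang4 changed sign to 1.80 after thinning, 1.08 without barcodes over 50000 UMIs, 0.355 against Cd3-free barcodes and 0.36 with the 2% gate and Cd3-free others. Stxbp2 was at -0.013 with scaling by total UMIs and at -0.144 after thinning, and Htr4 was at 0.248 with Cd3 barcodes kept. The cause of these shifts was not tested. Calls also lost with DESeq2 were those of Galnt13, Hspa5, Calr, Cadps, Cacna2d1, Shisa9, Sox9, Neurod1, Pax6, Dll1, Notch1, Maml2, Ifnar2 and Ccnd2. Within each library alone, the log2 ratio kept its direction for the 118 genes named by rule except Ang4 (-2.16 in control 1 and 0.77 in control 2) and Slc12a2 (-0.01 in control 1 and 0.81 in control 2). Genes named for the size of their change had to move the same way in both libraries, so for them this was fixed in advance. Precision is limited by 2 libraries and by low UMI sums.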
